A study of Mus musculus with 32 samples.

Results

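Nicotinamide riboside (NR) was compared with vehicle in the kidney cortex of female control mice, with 4 mice on NR and 4 on vehicle, out of 32 mice in 8 groups of sex, genotype and treatment. All 8 mice were C57BL/6J-Col4a3tm1Dec animals of 25 weeks with the genotype Col4a3+/-. They were therefore heterozygous carriers of the disrupted collagen IV α3 allele and not wild-type mice, and what NR does in a kidney with both alleles intact cannot be read from them. From 10 weeks on, the vehicle mice ate a purified control diet, and the NR mice ate the same diet with NR at 0.5% by weight. The comparison asks what NR did to the transcriptome of a kidney without Alport disease, and it was described across all genes. Of 32544 genes in the count table, 10356 had no count in any of the 8 mice and 14951 passed the low-count filter and were tested.

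NR is a form of vitamin B3. Cells phosphorylate it with NR kinases and join it to an adenylate to make NAD, the cofactor that carries electrons from fuel oxidation to the respiratory chain and is consumed by sirtuins and PARPs. The proximal tubule, the bulk of the cortex, burns mostly fatty acids, in mitochondria for long and medium chains and in peroxisomes for very long and branched ones. PPARα, a nuclear receptor activated by fatty acids, drives many of these genes, with PGC-1α as a coactivator. SREBP2 drives the cholesterol genes when sterols are low, and NRF2 drives detoxification and antioxidant genes.

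Total counts were 16621944 to 22884023 in the NR mice and 22371273 to 27778797 in the vehicle mice, so the NR libraries were on the whole shallower. NR mouse 3 was the shallowest. Transcripts of the mitochondrial genome took 10.8% to 15.2% of counts in NR mice and 13.3% to 14.3% in vehicle mice. Unless stated otherwise, values below are normalised read counts in CPM, that is scaled to a common library size with TMM factors. The summed levels of marker lists and the CPM of Plin1 were scaled to total counts alone, without TMM factors. Changes are log2 fold changes of NR against vehicle with ± 1 SE.

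NR changed the expression of 956 genes at an adjusted p under 0.05, which was 6.39% of the genes tested. Transcripts of fatty acid oxidation, cholesterol synthesis, the respiratory chain and glutathione conjugation were prominent among the 598 that rose (4.00%), and Ppara, Col4a3, Col4a4 and 4 clock genes were among the 358 that fell (2.39%). Most changes were small. The median log2 change was 0.36 among the genes that rose and −0.41 among those that fell, and 187 genes passed 1.5-fold, 108 upward and 79 downward. A change of at least 2-fold was reached by 47 genes that rose and 20 that fell.

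The 4 NR mice lay entirely above or below the 4 vehicle mice in 906 of the 956 genes, where 14.6% of all genes tested did so. They lay above in 569 of the 598 genes that rose (8.15% of all genes tested) and below in 337 of the 358 that fell (6.49%). The smallest adjusted p belonged to Psat1, an enzyme of serine synthesis, and to Srcin1, an inhibitor of Src kinase. Psat1 stood at 21.7, 21.1, 18.9 and 20.5 CPM in the vehicle mice and at 35.4, 35.9, 38.4 and 36.4 CPM in the NR mice. Srcin1 stood at 55.2, 55.4, 59.1 and 50.9 CPM with vehicle and at 30.4, 31.1, 34.1 and 34.2 CPM with NR. Neither gene's groups overlapped, and the mice within each group were close together. Psat1 rose by 0.83 ± 0.07 and Srcin1 fell by 0.77 ± 0.07 on the log2 scale, both with an adjusted p of 0.000127.

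**Figure D1:**
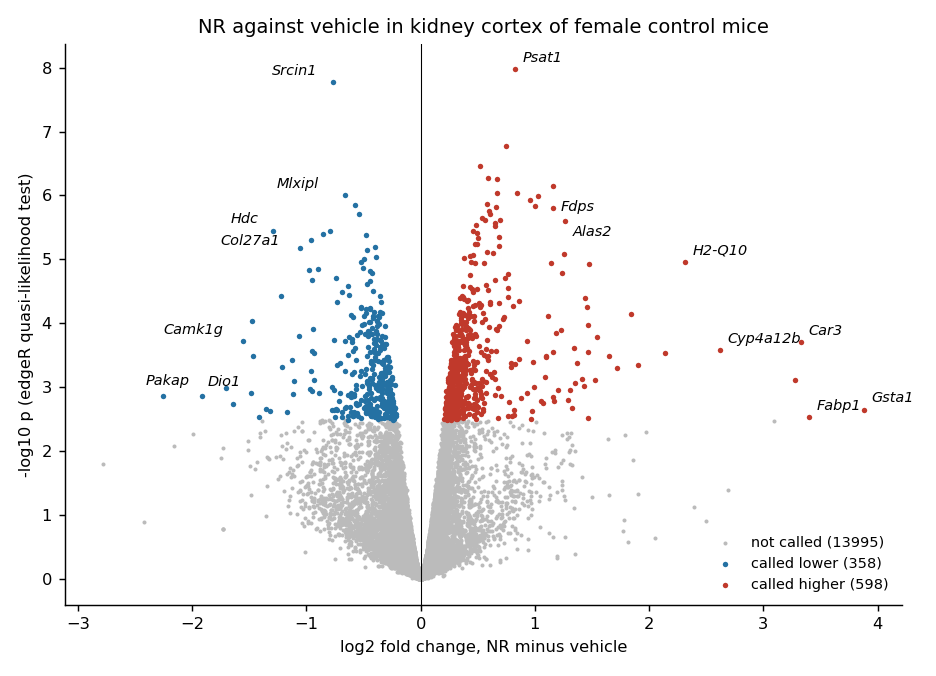
Each point is 1 of the 14951 genes tested, with the log2 fold change of NR against vehicle on the x axis and −log10 of the unadjusted p on the y axis, and genes called higher in red and lower in blue. The largest changes lie on the right, up to Gsta1 at 3.88, and the smallest p-values belong to Psat1 and Srcin1.

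How many genes passed depended on which mice were in the fit. Leaving out NR mouse 1, 3 or 4 left 422, 446 and 535 genes, and leaving out vehicle mouse 2, 3 or 4 left 533, 489 and 631. Without NR mouse 2 there were 795, and without vehicle mouse 1 there were 857. In a fit of all 32 mice in 8 groups, with a shared estimate of the spread and its own low-count filter (16469 genes tested), 20 genes passed, 19 of them higher with NR. In the same kind of fit on the 16 control mice of both sexes (15379 genes tested), 168 passed. Among the 20 were H2-Q10, Ugt1a10, Aldh1a1, Dbi, Gstm1, Fads1, Ces2e, Slc25a1, Reep6, Gstm6, Gm6614, Cyp4a12b, Fabp1, Sqle, Lpcat3, Fabp4, Bpgm and Perp upward and Srcin1 downward. Of the 20, 19 were also among the 956, and Fabp4 was not (adjusted p = 0.0943 in the 8 mice).

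Genes of mitochondrial fatty acid oxidation rose. Of 24 genes of the carnitine shuttle and mitochondrial β-oxidation, 15 rose and none fell, and the median change of the list was 0.30, where the median of all genes tested was −0.0091. Acaa2, the thiolase of the last step, stood at 267, 324, 317 and 300.4 CPM in the vehicle mice and at 496, 424, 508 and 493 CPM in the NR mice. The groups lay apart, with NR mouse 2 the lowest of its group. Acaa2 rose by 0.67 ± 0.08 (adjusted p = 0.00136). The acyl-CoA dehydrogenases that open each turn of the cycle, Acads for short, Acadl for long and Acadvl for very long chains, rose by 0.54 ± 0.07, 0.52 ± 0.09 and 0.40 ± 0.08.

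Enzymes that handle unsaturated chains rose too, Eci1 by 0.66 ± 0.11 and Decr1 by 0.54 ± 0.10, as did the electron carriers that pass the electrons on, Etfdh by 0.41 ± 0.07, Etfb by 0.31 ± 0.06 and Etfa by 0.28 ± 0.07. The gate of the pathway did not pass the test. Cpt1a, the carnitine palmitoyltransferase that commits fatty acids to entry, stood at 595, 639, 501 and 518 CPM with vehicle and 559.6, 561, 535 and 581 CPM with NR, with overlapping groups and a log2 difference of −0.01 ± 0.08 (adjusted p = 0.958). Acadm, the medium-chain dehydrogenase, differed by 0.19 ± 0.09 (adjusted p = 0.251). The count of 15 was 9 without NR mouse 3 and 0 in the fit on all 32 mice.

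Peroxisomal β-oxidation showed the same direction, with 8 of 19 genes higher, none lower and a median of 0.31. Ech1, a dienoyl-CoA isomerase, stood at 284, 359, 336 and 321 CPM in vehicle mice and at 516, 419.5, 559 and 521 CPM in NR mice, without overlap, and rose by 0.63 ± 0.09 (adjusted p = 0.00268). Hsd17b4, the multifunctional enzyme for branched chains, rose by 0.43 ± 0.07, and Phyh, which starts the α-oxidation of phytanic acid, by 0.35 ± 0.06. Ehhadh, the bifunctional enzyme for straight chains, read 593, 653, 623 and 419.7 CPM with vehicle and 1341, 686, 1692 and 1829 CPM with NR. The groups did not overlap, but NR mouse 2 stood close to the vehicle mice, and the difference of 1.28 ± 0.32 missed the threshold (adjusted p = 0.0731). The count of 8 was 11 without NR mouse 2, 4 without NR mouse 3 and 13 with DESeq2.

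The largest changes among lipid genes were in the Cyp4a enzymes, which hydroxylate the far end of fatty acids and lie side by side on chromosome 4. Cyp4a14 (mm10 chr4:115486200-115496142) stood at 509, 812, 655 and 599 CPM in the vehicle mice and at 2022, 1213, 2800 and 2451 CPM in the NR mice. Every NR mouse lay above every vehicle mouse, and the lowest NR value was again that of NR mouse 2. Cyp4a14 rose by 1.72 ± 0.28 (3.30-fold, adjusted p = 0.0200), and Cyp4a10 (mm10 chr4:115518264-115533649) by 1.32 ± 0.28 (adjusted p = 0.0401). Cyp4a12a and Cyp4a12b, near-identical neighbours whose reads the counting could have split either way, were below 5 CPM in every vehicle mouse and rose by 1.54 ± 0.28 and 2.62 ± 0.41. Of the 12 ω-hydroxylase genes tested, 5 rose, and Cyp4f17 alone fell, by 0.46 ± 0.11 on the log2 scale.

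Among the genes that bind, activate and store fatty acids, Fabp1, the liver-type fatty acid binding protein, read 1.21, 2.74, 4.71 and 2.29 CPM with vehicle and 23.0, 6.76, 48.8 and 38.8 CPM with NR. All NR mice were above all vehicle mice over a wide range, and the change was 3.40 ± 0.72 (10.6-fold, adjusted p = 0.0477). The call was lost when any mouse but NR mouse 2 was left out (adjusted p of 0.0908 to 0.120) and with the offset for transcript length and GC content (0.0532), and it held in the fit on all 32 mice (0.0154). The acyl-CoA synthetases Acsl3 and Acsl1 rose by 0.66 ± 0.08 and 0.53 ± 0.13. Plin2, which coats lipid droplets, rose by 0.49 ± 0.07, the fatty acid transporter Cd36 by 0.63 ± 0.13, and Ucp2, an inner membrane carrier, by 0.81 ± 0.12. In the list of these binding, droplet and fasting genes 4 of 25 rose and 1 fell, and in that of thioesterases and synthetases 4 of 26 rose and 1 fell.

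The transcript of PPARα, the receptor whose targets many of these genes are, went the other way. Ppara itself stood at 101, 114, 95.5 and 108 CPM with vehicle and at 70.6, 85.5, 69.3 and 81.4 CPM with NR. All NR values were lower, and Ppara fell by 0.45 ± 0.08 on the log2 scale (adjusted p = 0.00792). Ppargc1a, which encodes PGC-1α, differed by −0.17 ± 0.07 with overlapping groups (adjusted p = 0.158). Of the 16 PPAR and PGC-1 regulators tested, Ppara was the single call.

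**Figure D2:**
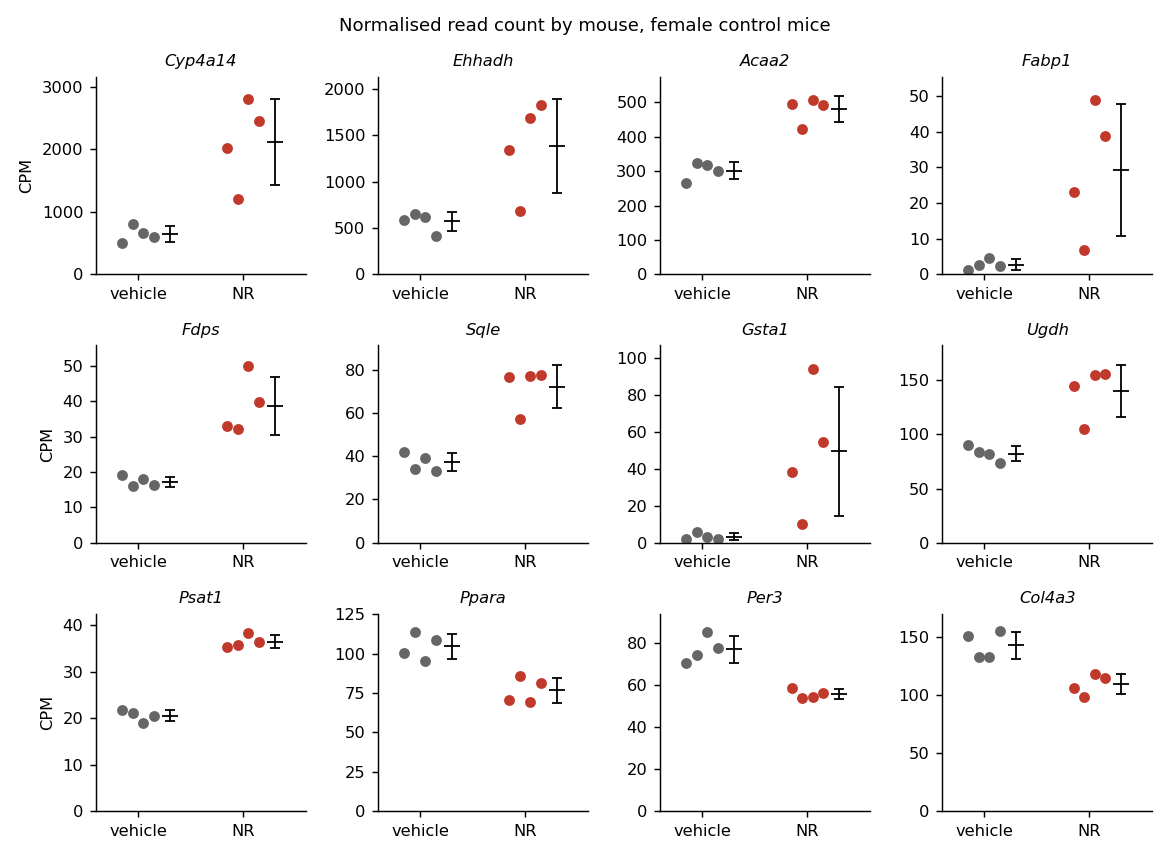
Each panel gives the CPM of a gene in the 4 vehicle mice (grey) and the 4 NR mice (red), with the mean ± SD as a black bar and the y axis starting at 0. The groups lie apart in all 12 panels, upward in Cyp4a14 to Psat1 and downward in Ppara, Per3 and Col4a3, and the lowest NR point in Fabp1, Gsta1 and Ehhadh is that of NR mouse 2.

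Cholesterol synthesis and uptake had a larger share of calls than fatty acid oxidation. Of 27 genes, 22 rose and none fell, with a median of 0.51. Sqle, which epoxidises squalene, stood at 41.9, 34.0, 39.3 and 33.2 CPM in vehicle mice and 76.4, 57.0, 77.3 and 77.3 CPM in NR mice. Insig1, the sterol sensor that holds SREBPs back, stood at 36.2, 33.8, 39.6 and 48.6 CPM with vehicle and at 94.5, 70.7, 109 and 97.5 CPM with NR. For both genes the groups lay apart, with NR mouse 2 the lowest of its group. Sqle rose by 0.96 ± 0.11 (adjusted p = 0.00136) and Insig1 by 1.23 ± 0.15 (adjusted p = 0.00388).

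Enzymes at several steps of the pathway rose, Hmgcs1 near its start by 0.52 ± 0.09, Mvk and Mvd in the middle by 0.61 ± 0.11 and 0.39 ± 0.08, Fdps, which makes farnesyl pyrophosphate, by 1.16 ± 0.13, and Dhcr7 at its end by 0.51 ± 0.12. Srebf2, which encodes SREBP2, rose by 0.25 ± 0.06. The 22 calls were 17 without NR mouse 3, 21 without NR mouse 2 and 2 in the fit on all 32 mice.

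Fatty acid synthesis did not move as a block, with 2 of 19 genes higher and 1 lower. Fads1, a desaturase of polyunsaturated fatty acids, rose by 0.67 ± 0.08 (adjusted p = 0.00136), and Srebf1 rose by 0.48 ± 0.13 with overlapping groups (adjusted p = 0.0494). The call on Srebf1 was lost when any mouse but vehicle mouse 3 was left out and in the fit on all 32 mice. Mlxipl, which encodes the glucose-responsive factor ChREBP, stood at 166, 182, 185 and 224 CPM with vehicle and 120.0, 125, 113 and 119.5 CPM with NR. It fell without overlap by 0.66 ± 0.08 on the log2 scale (adjusted p = 0.00136).

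Promoters of genes in these lists were searched for the binding motifs of the 3 regulators, to show where such letters lie in genes that moved together. The sequences are RefSeq promoters of build GRCm38.p6 around the start of each gene, and both strands were searched. The sterol element TCACNCCAC was found in 1.24% of 32851 promoters. In the cholesterol list 1 of 23 promoters of 19 genes held it, that of Hmgcs1. The antioxidant element TGACNNNGC was found in 12.4% of all promoters and in 11 of 34 promoters of the NRF2 list (32.4%). These 11 belonged to 10 of the 27 genes of the list with a promoter, of which Abcc4, G6pdx, Pgd and Ugdh rose. In the whole NRF2 list 14 of 31 genes rose. The PPAR element, AGGTCA repeated after a spacer of 1 base, was found in 0.0396% of promoters and in none of the fatty acid oxidation lists. A match or its absence in this window says nothing of the factor. The promoters of Hmgcs1 (chr13:119690101-119690400, plus strand, sterol element in capitals, 137 bases before the start), Ugdh (chr5:65435793-65436092, minus strand, 2 antioxidant elements in capitals) and G6pdx (chrX:74428831-74429130, minus strand, antioxidant element in capitals on the opposite strand, 57 bases before the start) read as follows, 5′ to 3′.
Hmgcs1: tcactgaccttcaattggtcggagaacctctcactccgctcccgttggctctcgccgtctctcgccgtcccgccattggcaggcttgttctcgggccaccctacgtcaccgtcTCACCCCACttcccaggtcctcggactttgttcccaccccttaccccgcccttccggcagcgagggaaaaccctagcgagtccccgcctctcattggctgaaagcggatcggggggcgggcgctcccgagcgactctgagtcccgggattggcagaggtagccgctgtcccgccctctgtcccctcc
Ugdh: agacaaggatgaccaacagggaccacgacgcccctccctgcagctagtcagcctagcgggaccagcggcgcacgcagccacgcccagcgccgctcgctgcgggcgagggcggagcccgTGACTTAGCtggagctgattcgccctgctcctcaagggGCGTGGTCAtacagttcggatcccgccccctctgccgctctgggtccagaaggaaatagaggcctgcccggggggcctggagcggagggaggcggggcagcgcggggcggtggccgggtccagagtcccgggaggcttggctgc
G6pdx: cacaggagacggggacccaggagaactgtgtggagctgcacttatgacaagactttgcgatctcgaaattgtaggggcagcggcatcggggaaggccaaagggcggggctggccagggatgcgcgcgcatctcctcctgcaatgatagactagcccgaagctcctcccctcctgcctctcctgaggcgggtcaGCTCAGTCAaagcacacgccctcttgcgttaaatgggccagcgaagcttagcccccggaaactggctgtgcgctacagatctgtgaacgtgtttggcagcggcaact

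Detoxification genes rose. Of 31 NRF2 targets, 14 rose and none fell, with a median of 0.34. Ugdh, which makes UDP-glucuronic acid, stood at 89.8, 83.3, 82.1 and 73.8 CPM with vehicle and at 145, 105, 155 and 156 CPM with NR, without overlap, and rose by 0.77 ± 0.12 (adjusted p = 0.00661). Txn1, or thioredoxin, rose by 0.58 ± 0.11. Cbr1, a carbonyl reductase, rose by 1.17 ± 0.24, and Gsr, the glutathione reductase, by 0.34 ± 0.08. Nqo1, a quinone reductase often used as the marker of NRF2, read 31.6, 65.6, 50.5 and 35.4 CPM with vehicle and 124, 59.4, 137 and 133 CPM with NR. NR mouse 2 lay among the vehicle mice, and the difference of 1.31 ± 0.36 missed the threshold (adjusted p = 0.0915). Gclc, the catalytic subunit of glutathione synthesis, differed by 0.12 ± 0.17 (adjusted p = 0.720). The count of 14 was 8 without NR mouse 3.

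Glutathione S-transferases, which couple glutathione to reactive compounds, had 10 of 22 genes higher and none lower, with a median of 0.37. Gsta1 had the largest log2 change of all genes tested. It stood at 2.17, 5.76, 3.18 and 2.03 CPM with vehicle and at 38.5, 10.4, 94.3 and 54.5 CPM with NR, a rise of 3.88 ± 0.78 (14.7-fold, adjusted p = 0.0415). The NR mice were all higher but spread over a wide range. The call on Gsta1 was lost when any mouse but NR mouse 2 was left out (adjusted p of 0.0725 to 0.111) and in the fit on all 32 mice (0.0742). Gsta2, much more even between mice, rose by 0.69 ± 0.10 (adjusted p = 0.00236), Gstm1 by 1.29 ± 0.26 and Gstm6 by 1.25 ± 0.19. These transferases are close paralogs, and reads shared between them could have been counted for either. The count of 10 was 4 without NR mouse 3.

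Superoxide and peroxide scavengers had 9 of 18 genes higher, with a median of 0.29. Sod1, the cytosolic superoxide dismutase, rose by 0.42 ± 0.08, Prdx1, a peroxiredoxin, by 0.47 ± 0.07, Gpx4, which reduces lipid peroxides, by 0.42 ± 0.08, and Cat, or catalase, by 0.49 ± 0.11. Of 23 UDP-glucuronosyltransferases and carboxylesterases, 6 rose. Among them Ugt1a10 rose by 1.46 ± 0.20 from 401, 278, 349 and 427 CPM to 977, 691, 1253 and 1087 CPM, and its groups lay far apart. The genes of the Ugt1a locus share their last exons, so the split of reads between them is uncertain. Ces2e and Ces2c, carboxylesterases that cleave esters and drugs, rose by 1.02 ± 0.12 and 1.14 ± 0.14. Aldh1a1, which makes retinoic acid, rose by 1.43 ± 0.26 and Dhrs4, a retinal reductase, by 0.50 ± 0.07, 2 of the 4 calls among 19 retinoid genes.

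The genes closest to NR itself changed little. Of 14 genes of NAD salvage tested, Pnp, a phosphorylase that splits NR to nicotinamide, was the single call and rose by 0.36 ± 0.06 (adjusted p = 0.00656). Pnp read 79.4, 81.9, 72.7 and 74.6 CPM with vehicle and 97.0, 104, 103 and 94.2 CPM with NR, without overlap. Nmrk1, the NR kinase of the kidney, read 94.6, 85.2, 75.0 and 72.3 CPM with vehicle and 69.2, 83.8, 62.7 and 75.3 CPM with NR, overlapped between groups and differed by −0.17 ± 0.10 (adjusted p = 0.353). Nampt, the rate-limiting enzyme for nicotinamide, differed by −0.09 ± 0.06 (adjusted p = 0.394). Nmrk2 was too low to test, with at most 13 counts in a mouse.

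In the de novo route from tryptophan 1 of 9 genes passed, Haao, with a rise of 0.29 ± 0.07 (adjusted p = 0.0315). The call on Haao was lost when any mouse but vehicle mouse 4 was left out, with the replicate block and in the fit on all 32 mice. None of the 19 NAD-consuming and NADP-making genes passed, and Sirt1 and Sirt3, both deacetylases that use NAD, each differed by −0.08 ± 0.08. The medians of the 3 NAD lists were −0.04, −0.05 and −0.02.

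Nuclear genes of the respiratory chain had the most calls of any list, 45 of 72, all higher, and each of the 72 had a change above 0. The median was 0.33 and the largest change 0.75. By complex, 25 of 37 genes of complex I rose, 4 of 9 of complex III, 9 of 10 of complex IV and 6 of 14 of ATP synthase. Cox5b, a subunit of cytochrome oxidase, read 217, 197, 218 and 246 CPM with vehicle and 269, 330.1, 310.0 and 284 CPM with NR. The groups were close but did not overlap, and Cox5b rose by 0.44 ± 0.08 (adjusted p = 0.00876). Uqcrq of complex III rose by 0.42 ± 0.07 and Atp5g3 of ATP synthase by 0.37 ± 0.07. The count of 45 was 24 without NR mouse 3, 27 without NR mouse 2, 31 with an offset for transcript length and GC content, and 0 in the fit on all 32 mice.

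Transcript length moved with treatment across the whole table. When genes were put into 4 equal classes by transcript length, 6.9% of the shortest class rose and 1.7% fell, and of the longest class 1.18% rose and 3.3% fell. The difference between the median deviations of short and long genes was above 0 in all 4 NR mice, from 0.011 to 0.089 on the log2 scale, and below 0 in all 4 vehicle mice, from −0.083 to −0.028. Of the 72 respiratory chain genes, 57 were in the shortest class. Cytosolic ribosomal proteins, also short, had 11 of 37 genes higher with a median of 0.25, and podocyte genes, long on the whole, had a median of −0.13. With an offset that removed the trend with length and GC content, 827 genes passed, 702 of them shared with the 956, and the median of the respiratory chain was 0.29, that of cholesterol genes 0.47 with 21 calls and that of podocyte genes −0.04. The part of transcript length in the remaining results was not tested.

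**Figure D3:**
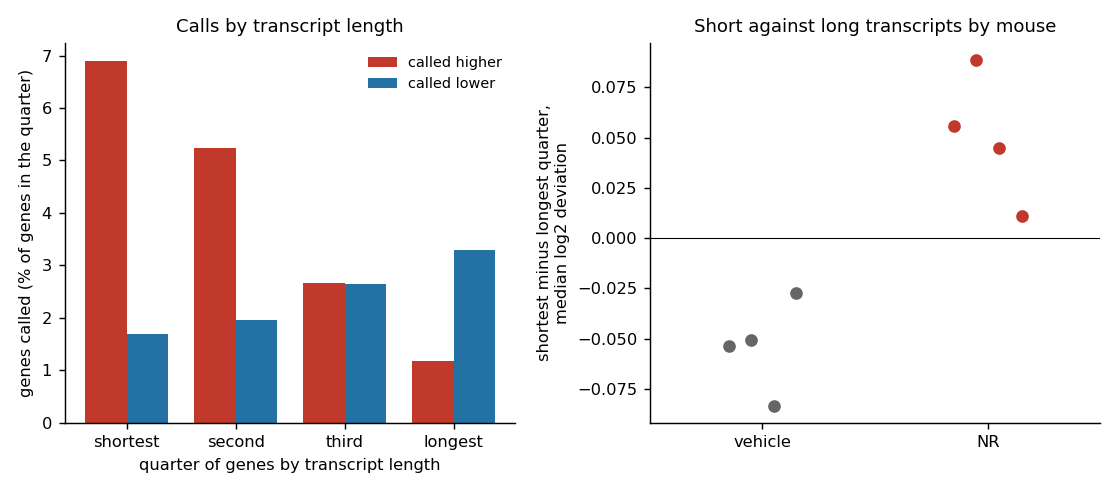
Left, the percentage of genes called higher (red bars) and lower (blue bars) in each of 4 classes of genes by transcript length; right, the median log2 deviation of the shortest class minus that of the longest in each mouse. Calls upward fell from 6.9% to 1.18% from the shortest to the longest class, and the 4 NR mice lie above 0 and the 4 vehicle mice below it.

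The citric acid cycle and glycolysis changed less. In the cycle 4 of 27 genes rose, Idh1, Idh2, Suclg1 and Sdhc, by 0.23 to 0.39, and the median was 0.12. In glycolysis and gluconeogenesis 3 of 24 rose, Tpi1 by 0.26 ± 0.06, Pgam1 by 0.28 ± 0.07 and Fbp2 by 0.37 ± 0.10. Of the 13 mitochondrially encoded transcripts, mt-Nd6 rose by 0.60 ± 0.11 and kept its call whichever mouse was left out. mt-Nd3 rose by 0.37 ± 0.10 with overlapping groups (adjusted p = 0.0479). The calls on mt-Nd3 and Fbp2 were lost with limma-voom, without robust shrinkage, with the length and GC offset and in the fit on all 32 mice, and when any mouse but vehicle mouse 4 (mt-Nd3) or vehicle mouse 3 (Fbp2) was left out.

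Of 18 clock genes, none rose and 4 fell, and the median was −0.25. Per3, a period protein of the negative limb, stood at 70.4, 74.3, 85.5 and 77.8 CPM with vehicle and at 58.6, 53.8, 54.3 and 56.2 CPM with NR. Per2 of the same limb stood at 75.8, 77.5, 94.5 and 91.9 CPM and at 66.1, 62.6, 58.6 and 62.9 CPM. Neither overlapped between groups. Per3 fell by 0.47 ± 0.07 on the log2 scale (adjusted p = 0.00251) and Per2 by 0.44 ± 0.08, and Hlf, a transcription factor of the clock output, by 0.33 ± 0.07. The hour at which each mouse was killed is not given in the sources used here, so hour and treatment cannot be told apart for these genes.

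Outside these groups the largest increases included H2-Q10, a class Ib histocompatibility gene made mostly in liver, which read 2.82, 2.42, 2.05 and 3.03 CPM with vehicle and 11.7, 6.81, 18.9 and 14.1 CPM with NR. The groups were far apart at low levels, and H2-Q10 rose by 2.32 ± 0.29 (4.98-fold, adjusted p = 0.00307). Reads shared with other H2 genes could have been counted for either. Already counted in their lists above, Acsm3, a medium-chain acyl-CoA synthetase, rose by 1.10 ± 0.22 and Ugt2b5, a glucuronosyltransferase, by 1.90 ± 0.38.

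Other genes with large decreases had no common list. Dio1, the deiodinase that activates thyroid hormone, stood at 112, 72.1, 50.0 and 87.5 CPM with vehicle and at 24.6, 36.1, 23.4 and 30.2 CPM with NR and fell by 1.49 ± 0.28 on the log2 scale (adjusted p = 0.0305). Hdc, which makes histamine, stood at 14.6, 13.6, 14.3 and 13.1 CPM with vehicle and between 4.09 and 7.33 CPM in the 4 NR mice, and fell by 1.29 ± 0.17 (adjusted p = 0.00177). For both, each NR mouse was below each vehicle mouse. Col27a1, a fibrillar collagen, fell by 1.05 ± 0.13 and Col7a1, the collagen of anchoring fibrils, by 1.07 ± 0.21. Pakap, a locus that joins Palm2 and Akap2 and whose reads could belong to either, fell by 2.25 ± 0.53 from a low level of 1.41 to 3.55 CPM. Camk1g, a calmodulin-dependent kinase, fell by 1.56 ± 0.32, Olfm4, a secreted glycoprotein, by 1.47 ± 0.26, Zg16, a lectin, by 1.22 ± 0.21, the potassium channel gene Kcnj12 by 1.21 ± 0.27, Derl3 of the degradation of misfolded proteins by 1.13 ± 0.24, and the cadherin Cdh4 by 1.12 ± 0.28.

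Among markers of the cell types of the cortex, few passed the test, where 4.00% of all genes tested rose and 2.39% fell. Of 28 proximal tubule markers, 1 rose and 2 fell, with Slc13a3, a dicarboxylate transporter, higher by 0.34 ± 0.09, and among those that fell Cubn, an endocytic receptor, by 0.34 ± 0.09. Of 29 markers of the loop of Henle, distal tubule and collecting duct, Pvalb rose by 0.41 ± 0.11 and Slc12a3, the thiazide-sensitive cotransporter, fell by 0.35 ± 0.08. These 4 calls depended on the mice in the fit. Leaving out any of 6 mice lost the call on Slc13a3 and on Cubn, any of 5 that on Pvalb, and NR mouse 1 that on Slc12a3. With the length and GC offset the calls on Cubn, Pvalb and Slc12a3 were lost. All 4 were lost with the replicate block and in the fit on all 32 mice. Of 18 podocyte markers, 2 fell, Col4a3 and Col4a4, and 1 had a log2 change above 0. Scaled to total counts alone, these 18 genes summed to 1549 to 1733 CPM with vehicle and 1417 to 1468 CPM with NR, without overlap. TMM factors were 0.957 to 1.003 in the NR mice and 1.008 to 1.049 in the vehicle mice. Scaling with them would narrow this gap. The median change of −0.13 was −0.04 with the offset for length and GC content. In bulk tissue, fewer cells of a type and less RNA per cell cannot be told apart.

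Col4a3 read 151, 133, 133 and 155 CPM with vehicle and 106, 98.4, 118 and 115 CPM with NR, and Col4a4, its neighbour in head-to-head orientation, 203, 193, 211 and 215 CPM and 156, 156, 181 and 165 CPM. The groups of both lay apart, and they fell by 0.38 ± 0.08 (adjusted p = 0.0115) and 0.32 ± 0.07 (adjusted p = 0.0142). The call on Col4a4 was lost with the length and GC offset and without NR mouse 1. In the fit on all 32 mice neither gene was called. The log2 ratio of Col4a3 to Col4a4 was −0.67 to −0.43 with vehicle and −0.66 to −0.52 with NR, so the 2 chains moved together. In the female Alport mice that ratio was −1.74 to −1.28, which set their genotype apart from that of all 8 control mice. Vegfa, the growth factor for endothelium that podocytes and tubules make, fell by 0.48 ± 0.07 (adjusted p = 0.00190), from 262, 280.2, 301 and 313 CPM to 203, 206, 207 and 214 CPM, and its groups lay apart. It stood on the endothelial list, on which Esam rose by 0.46 ± 0.11 and no other gene passed.

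Of 21 tubule injury markers, 18 did not pass. Havcr1, or Kim-1, read 1.77, 0.889, 4.00 and 0.909 CPM with vehicle and 5.66, 2.51, 1.99 and 2.69 CPM with NR, and Lcn2 read 2.09, 0.711, 5.12 and 1.64 CPM and 8.12, 1.93, 1.33 and 2.74 CPM. Both overlapped between groups, with adjusted p of 0.448 and 0.717. The 3 that rose all encode plasma proteins. C3, the central complement protein, read 53.9, 65.1, 89.3 and 51.8 CPM with vehicle and 303, 193, 202 and 232 CPM with NR, far apart, and rose by 1.84 ± 0.22 (adjusted p = 0.00876). Fga, a fibrinogen chain, rose by 0.70 ± 0.16 and Cp, or ceruloplasmin, by 0.57 ± 0.09.

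None of 24 immune cell markers, 30 interferon-stimulated genes, 26 cell cycle genes or 22 immediate early genes passed in the edgeR test. Their medians were −0.09, −0.12, 0.00086 and −0.01. In the fibroblast and matrix list 1 of 37 passed, Myh11, a smooth muscle myosin, which fell by 0.27 ± 0.07.

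Blood cell transcripts rose with NR. Of 6 erythrocyte markers tested, 5 rose, with a median of 1.41. Hba-a2, an α-globin, read 143, 135, 92.1 and 178 CPM with vehicle and 367, 506, 525 and 322 CPM with NR, without overlap, and rose by 1.65 ± 0.25 (adjusted p = 0.0166). Alas2, the erythroid enzyme of heme synthesis, rose by 1.27 ± 0.16 (adjusted p = 0.00157). The summed level of the 7 listed erythrocyte genes in the table was 382 to 710.2 CPM in the vehicle mice and 1167 to 1554 CPM in the NR mice. Reads of the globin pairs, which are near-identical, could have been counted for either copy. The part of blood left in the tissue in other results was not tested.

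Defining transcripts of fat were seen in NR mouse 3. The 14 adipocyte markers summed to 47.9 to 54.4 CPM in the vehicle mice and 68.3 to 134 CPM in the NR mice, the highest in NR mouse 3. Adipoq, which only adipocytes make, had 9 counts in NR mouse 3 and 0 in each of the other 7 mice, and Ucp1 of brown fat had 52 counts there and at most 2 elsewhere. Plin1, a lipid droplet protein of adipocytes, was at 2.71 CPM in NR mouse 3, at 0.0896 to 0.35 CPM in the other NR mice and at 0.405 to 0.665 CPM in the vehicle mice. Car3, a carbonic anhydrase abundant in fat, read 4.11, 4.16, 1.12 and 2.60 CPM with vehicle and 36.1, 15.6, 35.6 and 33.3 CPM with NR. It was high in all NR mice, also those without Adipoq counts, and rose by 3.33 ± 0.45 (adjusted p = 0.0128), the single call among the 5 adipocyte markers tested. The part of fat in the other results was not tested beyond the counts given without NR mouse 3.

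The size of the response differed between the NR mice. NR mouse 2 had the lowest value of the 4 in 224 of the 598 genes that rose (37.5%), in 11 of the 15 of mitochondrial β-oxidation, in all 5 ω-hydroxylases, in 14 of the 22 cholesterol genes and in 8 of the 10 glutathione transferases, where it had the lowest of the 4 in 26.8% of all genes tested. For the 45 respiratory chain genes it was lowest in 4. NR mouse 3, the shallowest library, was the highest of the 4 in 51.3% of the genes that rose, against 29.8% of all genes tested.

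**Figure D4:**
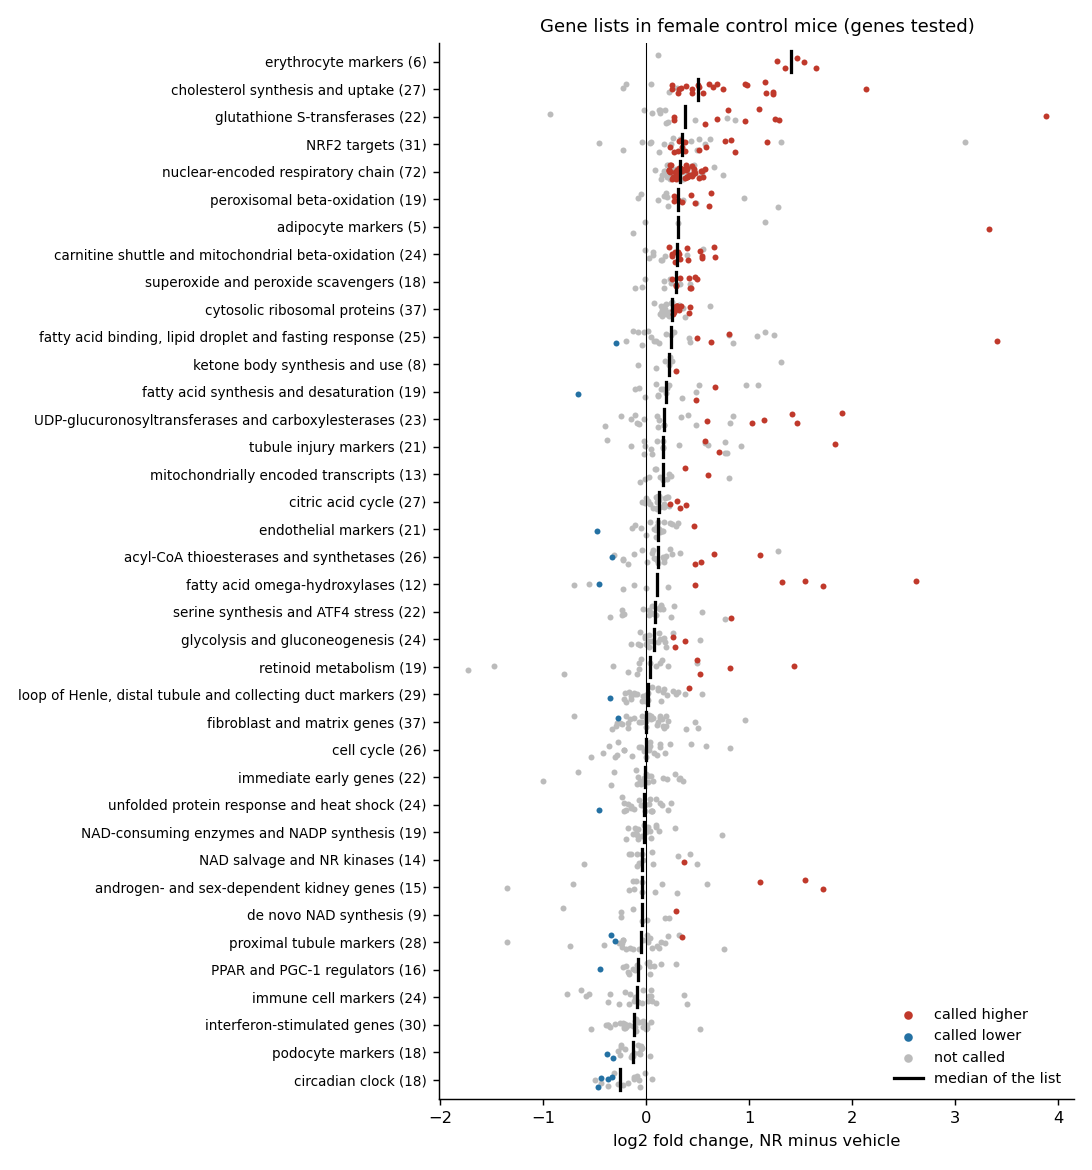
Each point is a gene of a list, placed by its log2 fold change of NR against vehicle, red where it was called higher, blue where lower and grey where not called, with the median of the list as a black line and the number of genes tested in parentheses. The medians run from −0.25 for the circadian clock to 1.41 for erythrocyte markers, with cholesterol synthesis and uptake at 0.51.

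The same contrast was available in male control mice and in female Alport mice, and neither shares a mouse with the female controls. In male controls 654 genes passed (4.45%), 437 higher (2.97%) and 217 lower (1.48%). In female Alport mice 72 passed (0.458%), 60 higher (0.382%) and 12 lower (0.0764%). Of the genes called in female controls and tested in male controls, 778 of 952 (81.7%) had a difference of the same sign there, where 61.2% of all genes did. In female Alport mice it was 765 of 955 (80.1%) against 63.1%. The genes that fell were repeated less in the Alport mice, 218 of 357, than those that rose, 547 of 598, and that difference was not tested. Calls shared by the female and male controls were 74 higher and 32 lower, 11.1% of the female calls and 16.4% of the male calls tested in both, and 4 genes were called in opposite directions. With female Alport mice 44 were shared higher and 2 lower, which was 4.81% of the female control calls and 66.7% of the Alport calls tested in both.

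Among the genes called higher in all 3 groups, Fabp1 rose in the Alport females by 3.94, Gsta1 by 4.61, Cyp4a14 by 3.02 and Acaa2 by 1.13, and in the male controls these 4 genes rose by 5.43, 5.91, 5.89 and 0.98. Ppara, lower in female controls, differed by −0.15 in male controls and 0.14 in female Alport mice, neither of which passed. Vegfa fell in male controls by 0.51 and differed by 0.28 in Alport females.

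**Figure D5:**
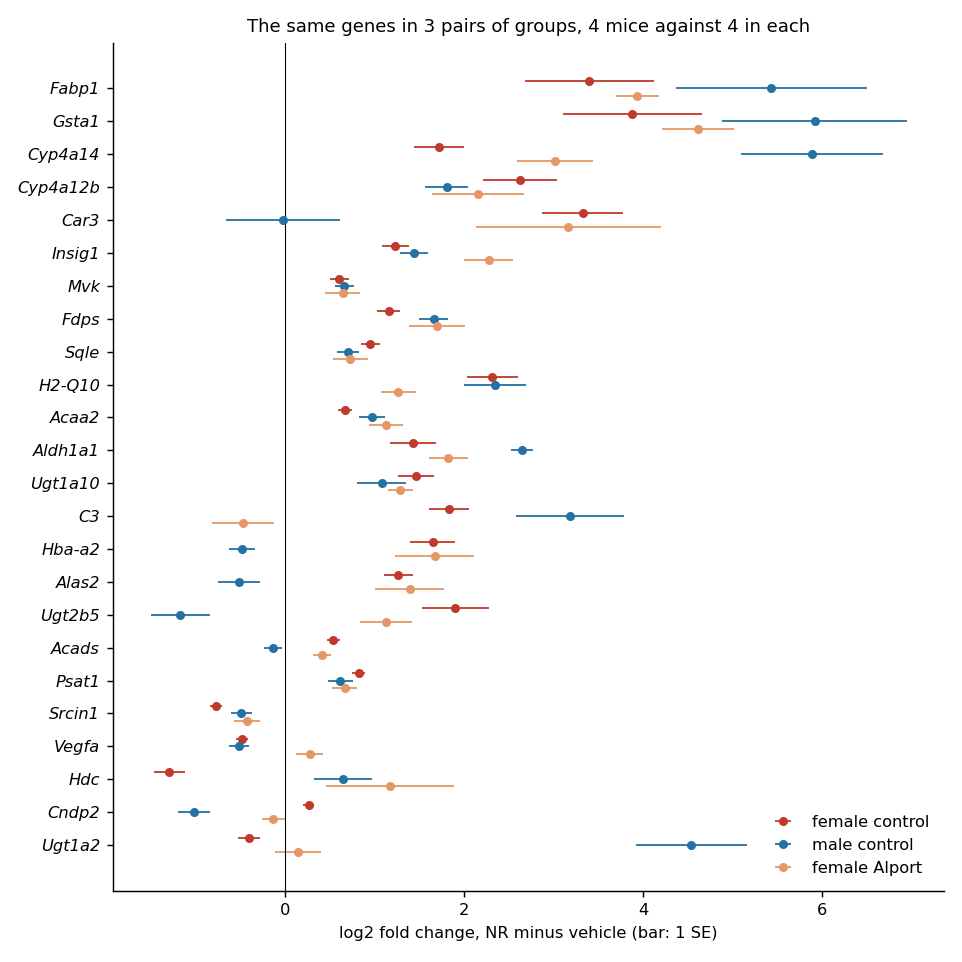
Log2 fold change of NR against vehicle with 1 SE for 24 genes in female control (red), male control (blue) and female Alport mice (orange), with 4 mice against 4 in each. Fabp1, Gsta1, Cyp4a14 and Acaa2 lie to the right of 0 in all 3, Hba-a2, Alas2 and Ugt2b5 lie to the right in both female groups and to the left in male controls, and Ugt1a2 lies far to the right in male controls.

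Whether the response differed between the sexes was tested as an interaction in the 16 control mice. Of 15379 genes, 96 passed (0.624%), 51 with a more positive change in females and 45 with a more positive change in males. In 75 of the 96 the 2 log2 changes had opposite signs, which a test for a difference favours. On their own, 33 of the 96 were called in females, 61 in males, 6 in both and 8 in neither. Most of the opposite signs therefore include a change that was not called. Globin and heme genes were on the female side, with Hba-a2 at 1.65 ± 0.25 in females and −0.48 ± 0.15 in males (adjusted p of the interaction 0.0134), and 5 of the 6 erythrocyte markers passed. Ugt1a2 differed by −0.40 ± 0.12 in females (adjusted p = 0.0754) and rose by 4.54 ± 0.62 in males (interaction 0.0134), while Cyp4a14 rose by 1.72 ± 0.28 in females and by 5.89 ± 0.80 in males (interaction 0.0386). Acads rose by 0.54 ± 0.07 in females and differed by −0.13 ± 0.10 in males (interaction 0.0282), and Cndp2, a dipeptidase, rose by 0.27 ± 0.06 and fell by 1.01 ± 0.18.

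That count was unstable. It was 6 to 17 when any of female NR mice 1, 3 and 4, female vehicle mice 3 and 4, male NR mice 1 and 3 and male vehicle mice 1, 2 and 4 was left out, 41 without female NR mouse 2, and 326 and 671 without male NR mice 2 and 4. The interaction of genotype and NR in the 16 female mice passed for 0 of 16064 genes in edgeR, with 1484 at an unadjusted p under 0.05 and a smallest adjusted p of 0.0714, for 30 genes in DESeq2, and for 33 in edgeR without Alport NR mouse 1. The response in female controls was therefore not shown to differ from that in female Alport mice, nor shown to be alike.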

How the data were processed

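Kidney cortex RNA was sequenced by the authors from poly(A)-selected libraries, 1 per mouse, and the reads were processed with BioJupies against mm10. The aligner version, annotation and strand setting are not given in the sources used here. The deposited raw counts per gene were used. A deposited table of log10 values, equal to log10 of CPM plus 1, was not used.

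Genes were kept by edgeR's filterByExpr with a minimum count of 10, scaled by TMM, and tested with edgeR 4.0.16 by the robust quasi-likelihood test in the 8 female control mice, without covariates, with Benjamini-Hochberg adjustment over all genes tested. Male control and female Alport mice were fitted separately in the same way, and interactions in 16 mice each. Depth is given with the results. No 2 libraries of a group were alike within counting noise (lowest chi-square per degree of freedom 7.96 in 12 pairs). Summed Y-linked transcripts were 7.75 to 9.98 CPM in the 8 mice and 132 to 203 CPM in 16 males. The p-values measure the spread between these mice.

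Genes were named as the 12 largest changes in each direction among non-overlapping calls with a mean of at least 1 CPM and no clone or predicted symbol, up to 3 calls with the smallest p per list, 10 fixed genes and up to 5 per interaction, and further genes were chosen after their values were seen. The comparison and the 40 lists of 906 genes were chosen with earlier results of these data known. Alternatives were DESeq2 1.42.0, limma-voom (limma 3.58.1), other scalings, filters and mouse sets, a replicate block and each mouse left out. Scripts were tested on simulated data. Some listed genes are not reported here.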

Additional observations from a re-analysis of the deposited data

Results flagged for a closer look

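A single mouse stood apart from the other 3 of its group in 11 of 322 groups of 4 values (3.42%), and chance flags about 1 in 20. NR mouse 2 was low in Car3 (15.6 CPM), Sqle (57.0 CPM), Nqo1 (59.4 CPM) and Cyp4a31 (373 CPM). NR mouse 3 was high in Sdhc (415 CPM) and Fabp4 (43.7 CPM), the latter alongside its counts of fat markers, and low in Slc22a27 (0.422 CPM). NR mouse 4 was low in Hbb-bt (67.7 CPM), NR mouse 1 was high in Tpi1 (599 CPM), vehicle mouse 2 was high in Cyp4a12a (4.30 CPM), and vehicle mouse 4 was low in Cbr1 (241 CPM).

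The response to NR differed between female and male controls by the interaction test in edgeR for 21 of the genes named. The log2 change in females minus that in males was positive for the blood genes Hba-a2 (2.14), Hba-a1 (1.86), Hbb-bt (2.30), Hbb-bs (2.05), Alas2 (1.78), Bpgm (0.56) and Cpox (0.67), for the enzymes Ugt2b5 (3.08), Acsm3 (2.63), Adh1 (1.28), Cndp2 (1.29), Acads (0.68) and Phyh (0.63), and for Pvalb (1.24). It was negative for Cyp4a14 (−4.15), Cyp26b1 (−3.96), Ugt1a2 (−4.93), Ugt1a1 (−1.91), Cbr1 (−2.04), Hdc (−1.93) and Mfsd7c (−0.96). Cyp26b1, which breaks down retinoic acid, did not pass in the female controls on their own (adjusted p = 0.088).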

How the results depend on the processing

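Named genes were not followed under the other filters, in the fit on the 16 control mice or at the limit of 1.5-fold. Under the remaining alternatives none of the 95 named genes that were called reversed its direction. Of these 95, 54 kept the call whichever mouse was left out. Under every other one of the remaining alternatives 7 kept it, and 6 kept it under all of them. The count of 956 genes (598 higher, 358 lower) was 1478 with DESeq2 (586 lower), 20 with all 32 mice in the fit (19 higher, 1 lower), 168 with the 16 control mice (128 higher, 40 lower) and 187 with a fold of at least 1.5 (108 higher, 79 lower). Leaving out 1 mouse gave 422 to 857 genes, 282 to 534 higher and 130 to 323 lower, and the total moved by over 1.5 times without NR mouse 1 (422), 3 (446) or 4 (535) or vehicle mouse 2 (533), 3 (489) or 4 (631). The 96 genes of the sex interaction were 491 with DESeq2 and 6 to 671 with 1 mouse left out, and the 0 of the genotype interaction were 30 with DESeq2 and 0 to 33 with 1 mouse left out. The causes of these shifts were not tested. Limma-voom gave 855 genes, size factors of DESeq2 948 and no filter 942. The offset for length and GC content (827) and the fit without robust shrinkage (924) were chosen after seeing the data.

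Groups share replicate numbers in the labels, but same-numbered mice did not deviate together (correlations of −0.073 to −0.0023 in 4 pairs), so the numbers were not read as pairs. A fit with the number as a block called 406 genes (242 higher, 164 lower), 58 for the sex interaction and 0 for the genotype interaction. Depth limits genes near 1 CPM, such as Pakap, most.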

Other observations

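Some gene families were counted after their values were seen, and some of their members are also on the lists. Over all genes tested 4.00% rose and 2.39% fell. None of the 21 Nudt, 14 Slc16 or 4 Hsd3b genes tested passed, and of 22 Cyp2 genes 1 rose. Of 19 Aldh genes 5 rose, and of 13 Slc7 genes 2 fell. Of 23 organic ion transporters of the Slc22 family, 4 fell and 1 rose. Slc22a27, Slc22a30, Slc22a7 and Slc22a4 fell by 1.47, 0.98, 0.95 and 0.42 on the log2 scale, and Slc22a2, the organic cation transporter OCT2, rose by 0.47. Of 7 genes of the pentose phosphate pathway, which makes NADPH, 5 rose, G6pdx, Pgd, Rpe, Taldo1 and Tkt. All of these but Rpe are also on the NRF2 list and were counted among its calls above. Of 38 proteasome subunits 13 rose and none fell, with a median of 0.18. Of 14 apolipoprotein genes 2 rose, Apoc3 by 1.47 and Apoa4 by 1.34, and of 4 Serpina1 genes, which encode α1-antitrypsins, Serpina1a rose by 1.20. In heme synthesis Alas2, also on the erythrocyte list, and Cpox were among 3 of 9 genes that rose, and Ppox fell.

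Several lists showed at most 3 calls each, though not always a small share of their genes, where 4.00% of all genes tested rose and 2.39% fell. In serine synthesis and the ATF4 stress response Psat1 was the single call of 22, and in the unfolded protein response Sdf2l1, a chaperone, was the single call of 24 and fell by 0.46 ± 0.12. The call on Sdf2l1 was lost when any mouse but NR mouse 3 was left out, with the replicate block and in the fit on all 32 mice. Of 8 ketone body genes Acat1 rose by 0.29 and was the single call (12.5%). Of 15 androgen- and sex-dependent kidney genes, Cyp4a14, Cyp4a12a and Acsm3 rose (20%), all of them also on fatty acid lists above. None of the 4 medulla and urothelium or 2 adrenal markers tested passed in edgeR.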
